A study of Mus musculus with 4 samples.

Results

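The proteasome and ubiquitin system was followed as 100 genes whose single annotated symbol begins with Psma to Psmg, Ube1 to Ube4 or Usp and a number, out of 10698 genes named on the array. They comprised 19 genes of the proteasome core, 19 of its regulatory particle, 7 activators and assembly factors, 25 genes named as ubiquitin-conjugating enzymes, 3 ligases or chain elongation factors and 27 named as deubiquitinases. These classes follow the symbols, so the core includes the pseudogene Psmb5-ps, and the regulatory particle includes Psmc3ip, which is no subunit, and the assembly chaperones Psmd9 and Psmd10. None carried a Ube1 symbol. RNA came from the CA1 field of the hippocampus of young male C57BL/6J mice. In the MK C+S group, MK-801, a blocker of the NMDA type of glutamate receptor, was injected 1 h before contextual fear conditioning, which paired 2 min in a new chamber with a foot shock of 1 s at 0.5 mA, 3 times in all. The MK group received MK-801 at the same labelled dose of 300 micrograms per g body weight without conditioning, so the drug was common to both groups. That dose is printed as labelled and lies far above those usually given to mice. One array with 2 dyes compared MK C+S (red) with MK (green) at each of 1, 2, 4 and 6 h after the last shock. How many animals supplied each array is not stated in the labels.

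Proteins are marked for destruction by a relay in which an activating enzyme hands ubiquitin to a conjugating enzyme, and a ligase then joins it to the target. The proteasome core is a barrel of outer alpha rings, which gate the entry, and inner beta rings, which hold the cutting sites. The regulatory particle caps the barrel, recognises ubiquitin chains, unfolds the target with a ring of ATPases and feeds it in, while deubiquitinases trim or remove the chains. In neurons this system is known to remodel synapses, and its block in the hippocampus is known to disturb the storage of fear memories in rodents.

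Each spot has 1 deposited log ratio per array, read here as base 10. Positive ratios likely stand for higher RNA levels in MK C+S, since the labels put that group in the red channel and red over green is the usual order. The table states neither the base nor the direction. No time had a second array and no dye was swapped, so a value at 1 time carries no replicate error, and conditioning and a dye effect cannot be told apart. Pearson correlations between arrays over all spots ran from 0.0165 to 0.373, and Spearman correlations from -0.0382 to 0.319. The values are ratios, so no marker of CA1 could be checked for its level, and a change in cell numbers and a change in RNA per cell cannot be told apart. An exact 0 was taken as not measured, which affected 22.7% of spots at 1 h and fewer at each later time, down to 7.39% at 4 h.

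The alpha subunits of the core had negative log ratios at 2 h in 8 of 8 genes, at 4 h in 7 of 8 and at 6 h in 7 of 7. Their median was 0.0037, -0.19, -0.15 and -0.099 at 1, 2, 4 and 6 h, beside a median of all genes between -0.0062 and 0.0013. At 1 h they divided evenly, with 4 positive and 4 negative. Of the 7 alpha subunits with a value on all 4 arrays, 6 were negative at 2, 4 and 6 h together, as were 22.5% of all such genes. The alpha and beta subunits were set apart after the values had been seen, and each alpha subunit rests on 1 spot. Endothelial and mural cell markers, 16 genes, were negative in 9, 12, 12 and 7 at 1, 2, 4 and 6 h, with medians of -0.079, -0.099, -0.11 and 0.012. Neuronal markers, 16 genes, had medians of -0.015, 0.023, 0.046 and -0.12, with 11 of 16 negative at 6 h. Oligodendrocyte markers had medians of -0.040, 0.045, -0.051 and 0.0054 and astrocyte markers 0.0034, 0.048, 0.022 and 0.093. Choroid plexus markers had 0.47, -0.040, 0.015 and -0.025, with 6 of 8 past 2-fold and positive at 1 h. The part of these cell types in the members' values was not tested.

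Promoters are shown for 4 of the alpha subunit genes that were negative at 2, 4 and 6 h. Psma6 and Psma8 had the same signs and are not shown. The promoters of Psma1, Psma3 and Psma7 carry CCAAT, and that of Psma4 is shown as one without it. Each line holds the 200 bases before the gene's start, 5′ to 3′ on the gene's strand, from RefSeq on build GRCm38.p6, and capitals mark CCAAT, the box bound by the factor NF-Y, or its complement ATTGG.
Psma1 (chr7:114276117-114276316, - strand): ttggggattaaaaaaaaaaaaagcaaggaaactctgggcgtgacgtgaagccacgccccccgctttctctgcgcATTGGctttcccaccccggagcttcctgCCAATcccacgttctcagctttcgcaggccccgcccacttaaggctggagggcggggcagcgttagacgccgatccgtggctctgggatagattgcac
Psma3 (chr12:70974423-70974622, + strand): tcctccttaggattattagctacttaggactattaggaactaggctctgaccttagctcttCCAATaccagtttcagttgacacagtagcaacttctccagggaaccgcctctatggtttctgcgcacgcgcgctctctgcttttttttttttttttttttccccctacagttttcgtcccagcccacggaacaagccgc
Psma4 (chr9:54950659-54950858, + strand): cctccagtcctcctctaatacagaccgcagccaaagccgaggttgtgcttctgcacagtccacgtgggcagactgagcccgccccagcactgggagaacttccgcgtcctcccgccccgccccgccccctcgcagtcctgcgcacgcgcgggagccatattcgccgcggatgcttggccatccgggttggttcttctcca
Psma7 (chr2:180042465-180042664, - strand): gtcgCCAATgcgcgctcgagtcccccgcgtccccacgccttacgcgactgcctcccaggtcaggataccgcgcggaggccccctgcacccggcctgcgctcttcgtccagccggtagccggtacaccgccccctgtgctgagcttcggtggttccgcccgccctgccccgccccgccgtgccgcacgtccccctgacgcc

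A window was matched for 79 of the 100 members, and 5 motifs were searched on both strands in the 250 bases before the start. CCAAT was found in 5 of 7 alpha subunit genes (Psma1, Psma2, Psma3, Psma6 and Psma7), in 2 of 7 beta subunit genes, in 26 of 79 members (32.9%) and in 37.5% of all 27025 genes with a window. The share over all members was thus below that of all genes, and the alpha subunits were picked out after their values were seen. Psma4, shown above, has no CCAAT in its window. The ETS motif CCGGAAGT was in 10 of 79 members (12.7%) and 3.23% of all genes. By class it was in 4 of 16 regulatory particle genes, 2 of 19 conjugating enzymes, 2 of 21 deubiquitinases and 0 of 14 core genes. It was also in 1 of 6 activators and assembly factors and 1 of 3 ligases. TGACNNNGC, the core of the antioxidant response element through which the factor Nfe2l1 acts on proteasome genes, was in 12 of 79 members and 11.5% of all genes. The cAMP response element TGACGTCA was in 1 of 79 members against 1.77% of all genes, and the GC box GGGCGG in 46 of 79 against 35.4%. None of these letter strings contains another, and partial overlaps were not counted. A match describes letters in a window.

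Psma1, an alpha subunit, lay at -0.12, -0.13, -0.16 and -0.087 at 1, 2, 4 and 6 h, the narrowest range among the alpha subunits. Psma7 lay at -0.094, -0.29, -0.19 and -0.12 at 1, 2, 4 and 6 h. Psma4 was at -0.0068, -0.20, -0.14 and -0.17 at 1, 2, 4 and 6 h. All 3 were negative on every array, and the mean over the arrays was -0.12 ± 0.048 (SE, n = 4 arrays) for Psma1, -0.17 ± 0.056 (SE, n = 4 arrays) for Psma7 and -0.13 ± 0.055 (SE, n = 4 arrays) for Psma4. Each SE here and below is limma's, in which a gene's scatter among times is moved towards that of all tested genes. In limma's test of the mean over all genes their adjusted p was 0.434, 0.427 and 0.449, so none passed 0.05. Psma3 was at 0.014, -0.16, -0.27 and -0.099 at 1, 2, 4 and 6 h. Psma6 was at 0.024, -0.18, -0.014 and -0.023 at 1, 2, 4 and 6 h and Psma5 at -0.19, -0.15, 0.030 and -0.091 at 1, 2, 4 and 6 h. These 3 departed from the negative sign at 1 time each, Psma3 and Psma6 at 1 h and Psma5 at 4 h. Psma2 had the widest swing of the system, at 0.13, -0.56 and -1.02 at 1, 2 and 4 h with no 6 h value. If the logs are base 10, its 4 h value is 10.5-fold below a ratio of 1. Psma8, the alpha subunit known from the testis, was at 0.56, -0.38, -0.13 and -0.22 at 1, 2, 4 and 6 h. Its 1 h value was the highest of the members at that time and its 2 h value among the lowest.

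The beta subunits had medians of 0.0013, -0.036, 0.038 and 0.043, with 7 of 10 negative at 2 h and 6 of 9 positive at 6 h. Psmb5, the subunit with the chymotrypsin-like cutting site, had values of -0.050 and 0.16 at 2 and 4 h only. Interferon induces 3 immune subunits, Psmb8, Psmb9 and Psmb10, which replace the cutting subunits Psmb5, Psmb6 and Psmb7 in turn. Among them Psmb9 was positive wherever it was measured, at 0.16, 0.31 and 0.18 at 2, 4 and 6 h. Psmb8 changed sign between arrays, at 0.018, -0.058, 0.19 and -0.16 at 1, 2, 4 and 6 h. Psmb10, with 2 spots, was at -0.16, -0.29, 0.068 and -0.056 at 1, 2, 4 and 6 h. The immune subunits thus did not share a sign, and at 2 h Psmb9 and Psmb10 lay on opposite sides of 0. Microglial markers, 12 genes, had medians of 0.084, -0.049, 0.11 and 0.12 at the 4 times, with 8, 6, 9 and 8 of 12 positive, and their part in the Psmb9 values was not tested.

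Psmb2 was the beta subunit with the clearest drift, at -0.15, -0.021, 0.19 and 0.24 at 1, 2, 4 and 6 h. Its slope of 0.080 ± 0.028 per h (SE, n = 4 arrays) had an adjusted limma p of 0.246. Psmb3, which had the highest mean among core members with a value on all 4 arrays, jumped between signs, at 0.31, 0.13, -0.28 and 0.16 at 1, 2, 4 and 6 h. Psmb1, Psmb4, Psmb6 and Psmb7 stayed between -0.20 and 0.12 on every array. The spot annotated to Psmb5-ps, a pseudogene of Psmb5, was negative on every array, at -0.024, -0.18, -0.15 and -0.10 at 1, 2, 4 and 6 h. Psmb5 itself was positive at 4 h. A probe for a pseudogene can also bind RNA of the parent gene, and these values cannot separate them.

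**Figure D1:**
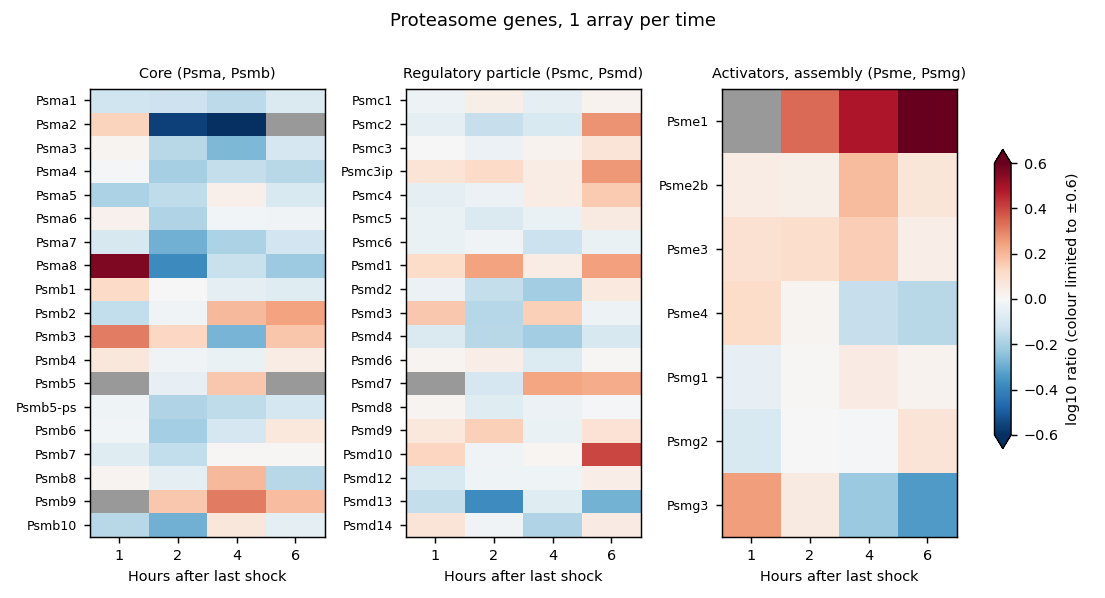
Log10 ratio (MK C+S over MK, likely direction) of each proteasome gene at 1, 2, 4 and 6 h, 1 array per time, with red positive, blue negative and grey not measured. Psma genes are blue at 2 h in 8 of 8 rows, and the rows of Psme1, Psme2b and Psme3 are red wherever measured.

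The regulatory particle had a median closer to 0 than that of the core at 2, 4 and 6 h. Its median was -0.017, -0.034, -0.041 and 0.055 at 1, 2, 4 and 6 h, with 14 of 19 negative at 2 h and 14 of 19 positive at 6 h. The 6 ATPases Psmc1 to Psmc6, which form the unfolding ring, varied little. They lay between -0.058 and -0.0027 at 1 h, where 6 of 6 were negative, and between -0.041 and 0.27 at 6 h, where 5 of 6 were positive. The median SD of an ATPase over the 4 arrays was 0.054, against 0.092 for alpha subunits, 0.13 for beta subunits and 0.12 for all genes. Psmc1, Psmc2, Psmc4 and Psmc5 are means of 2 spots, which narrows their spread.

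Psmc1 was flat at -0.031, 0.035, -0.052 and 0.023 at 1, 2, 4 and 6 h, and its 2 spots differed by at most 0.059 on any array. Psmc2 rested on 2 spots that diverged, one at -0.20, -0.11, 0.11 and 0.50 at 1, 2, 4 and 6 h and the other at 0.085, -0.17, -0.28 and 0.037 at 1, 2, 4 and 6 h. The 6 h value of Psmc2, 0.27, therefore came mainly from 1 spot. Psmc6 was negative on every array, at -0.040, -0.023, -0.13 and -0.041 at 1, 2, 4 and 6 h.

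Among the non-ATPase subunits, Psmd4 and Psmd13 were negative on all 4 arrays and Psmd1 positive on all 4. Psmd4, a ubiquitin receptor of the particle, was at -0.085, -0.17, -0.21 and -0.096 at 1, 2, 4 and 6 h, with a mean of -0.14 ± 0.051 (SE, n = 4 arrays). Psmd13, a subunit of the lid, was at -0.14, -0.38, -0.074 and -0.28 at 1, 2, 4 and 6 h, with a mean of -0.22 ± 0.066 (SE, n = 4 arrays). Psmd1, a scaffold of the base, ran the other way at 0.11, 0.24, 0.047 and 0.25 at 1, 2, 4 and 6 h, with a mean of 0.16 ± 0.058 (SE, n = 4 arrays). Their adjusted p in limma's test was 0.432, 0.427 and 0.43, so neither the negative nor the positive means passed. Psmd14, the deubiquitinase built into the lid, changed sign at 0.076, -0.023, -0.18 and 0.047 at 1, 2, 4 and 6 h, and Psmd7, its partner, was at -0.10, 0.24 and 0.22 at 2, 4 and 6 h. Psmd10, an assembly chaperone rather than a subunit, reached 0.40 at 6 h as the mean of spots at 0.76 and 0.036. Psmc3ip matches the symbol pattern but encodes a partner of meiotic recombination enzymes, and it was positive on every array at 0.080, 0.12, 0.047 and 0.26 at 1, 2, 4 and 6 h.

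The other subunits of the particle had small values. Psmd2, a scaffold beside Psmd1, was at -0.034, -0.14, -0.21 and 0.057 at 1, 2, 4 and 6 h, negative until 4 h while Psmd1 was positive. Psmd3, of the lid, alternated at 0.16, -0.17, 0.14 and -0.030 at 1, 2, 4 and 6 h. The lid subunits Psmd6, Psmd8 and Psmd12 stayed between -0.091 and 0.041 on every array. Psmd9, an assembly chaperone of the base, was at 0.064, 0.14, -0.042 and 0.086 at 1, 2, 4 and 6 h. Neither the lid nor the base thus shared 1 sign at all times.

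The PA28 activators, which open the barrel without ATP, were positive wherever measured. Psme1, the alpha chain of the cytosolic PA28 ring, was at 0.34, 0.48 and 0.80 at 2, 4 and 6 h and had no 1 h value. Those ratios correspond to 2.19-fold, 3.05-fold and 6.27-fold. Psme1 was the only member past 2-fold on 3 arrays. Psme2b, named after the beta chain of that ring, was at 0.046, 0.035, 0.19 and 0.074 at 1, 2, 4 and 6 h. Psme3, the nuclear PA28 protein, was at 0.089, 0.11, 0.15 and 0.040 at 1, 2, 4 and 6 h. The other 2 thus shared the sign of Psme1 at a fraction of its size, with no value above 0.19. The larger activator Psme4 took another course, positive at first and negative later, at 0.11, 0.017, -0.14 and -0.16 at 1, 2, 4 and 6 h. With 3 arrays Psme1 was outside the tests of genes measured on all 4.

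The assembly chaperones Psmg1 and Psmg2, which pair to build the alpha ring, stayed between -0.093 and 0.077. Psmg3, another such chaperone, drifted downwards at 0.25, 0.053, -0.22 and -0.34 at 1, 2, 4 and 6 h. Its slope of -0.12 ± 0.028 per h (SE, n = 4 arrays) had an adjusted limma p of 0.153. The slope did not pass 0.05, although each later value was lower than the one before.

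**Figure D2:**
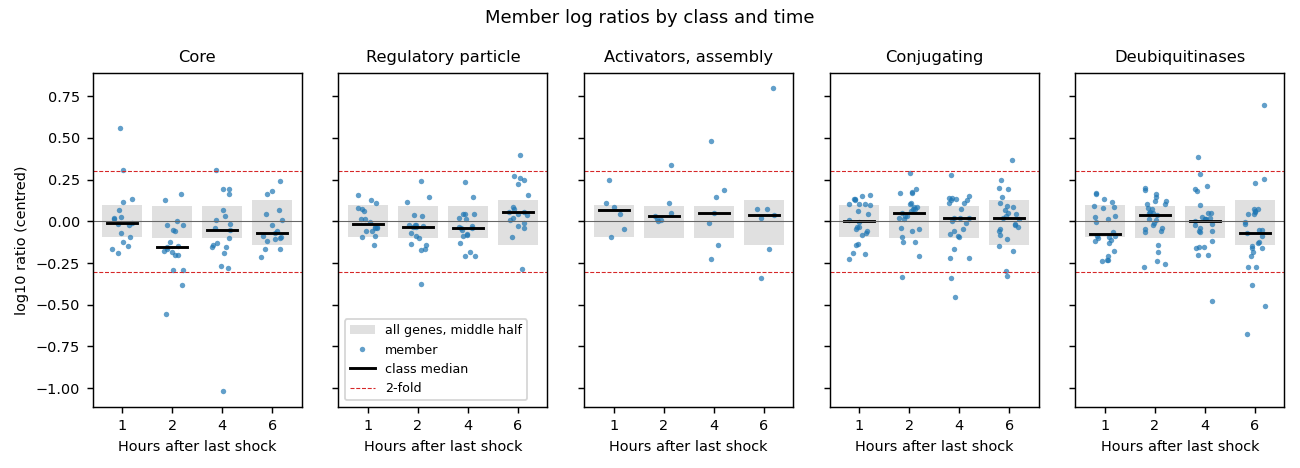
Log10 ratio of each member (points) by class at 1, 2, 4 and 6 h, with class medians (black bars), the quartile range of all genes (grey) and 2-fold (dashed red). The core median is -0.15 at 2 h, below the lower quartile of all genes, which is -0.10.

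Conjugating enzymes had medians of 0.0038, 0.053, 0.018 and 0.018 at 1, 2, 4 and 6 h, with 17 of 25 positive at 2 h. Of the 24 measured on all arrays, 5 were positive throughout (20.8%) and 3 negative throughout (12.5%), beside 10.1% and 11.8% of all genes. Ube2e3 and Ube2k had the tightest positive values. Ube2e3 was at 0.11, 0.088, 0.14 and 0.089 at 1, 2, 4 and 6 h, and Ube2k at 0.13, 0.10, 0.13 and 0.067 at 1, 2, 4 and 6 h. Ube2f, which conjugates the ubiquitin relative NEDD8, was at 0.060, 0.18, 0.019 and 0.20 at 1, 2, 4 and 6 h, and Ube2g2, an enzyme of protein disposal at the endoplasmic reticulum, at 0.044, 0.074, 0.15 and 0.018 at 1, 2, 4 and 6 h. The 2 spots of Ube2g2 had opposite signs at 1 h (-0.029 and 0.12) and at 6 h (0.079 and -0.044). Ube2e1 completed the 5, with 0.13, 0.087 and 0.15 at 1, 2 and 6 h. Its 4 h value was so close to 0 that its sign carries no weight. None of these means passed, with adjusted limma p values between 0.458 and 0.59.

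Ube2d2a and Ube2d3 belong to a family that serves many ligases. Ube2d2a was positive from 2 h on, at -0.032, 0.19, 0.28 and 0.19 at 1, 2, 4 and 6 h, with a mean of 0.16 ± 0.065 (SE, n = 4 arrays) and an adjusted limma p of 0.438. Ube2d3 was at 0.16, -0.058, 0.14 and 0.087 at 1, 2, 4 and 6 h. The pair differed in sign at 1 and 2 h and agreed at 4 and 6 h. Ube2a and Ube2b, close relatives that act on histones, were both negative from 2 h on, and Ube2a also at 1 h. Ube2a was at -0.032, -0.038, -0.093 and -0.023 at 1, 2, 4 and 6 h and Ube2b at 0.10, -0.13, -0.34 and -0.18 at 1, 2, 4 and 6 h. Ube2l3, a partner of parkin, was negative on every array at -0.059, -0.12, -0.22 and -0.059 at 1, 2, 4 and 6 h. Ube2l6, which conjugates the interferon-induced ISG15, peaked at 2 h with 0.29, against -0.083, 0.11 and 0.043 at 1, 4 and 6 h.

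Ube2n makes chains used in DNA repair and immune signalling, and it works only together with Ube2v1 or Ube2v2, which lack a catalytic site. Ube2n was at -0.067, 0.17, 0.13 and 0.11 at 1, 2, 4 and 6 h. Ube2v2 was at -0.14, -0.21, -0.45 and -0.33 at 1, 2, 4 and 6 h, with a mean of -0.28 ± 0.066 (SE, n = 4 arrays) and an adjusted limma p of 0.416, the lowest among the members. From 2 h on the enzyme and this partner thus lay on opposite sides of 0. The 2 spots of Ube2v2 disagreed in size, one at -0.27, -0.062, -0.019 and -0.018 at 1, 2, 4 and 6 h and the other at -0.014, -0.35, -0.88 and -0.64 at 1, 2, 4 and 6 h. Both spots were negative on every array, but only the second passed 2-fold, at 2, 4 and 6 h. Ube2v1 was at -0.13, -0.34, 0.018 and 0.25 at 1, 2, 4 and 6 h, and its 6 h value joined spots at 0.52 and -0.024.

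Ube2c and Ube2t are known from dividing cells and DNA repair. Ube2c was at 0.11, 0.11 and 0.37 at 2, 4 and 6 h, and Ube2t at 0.11, 0.065, -0.17 and -0.30 at 1, 2, 4 and 6 h. Ube2t had a slope of -0.085 ± 0.026 per h (SE, n = 4 arrays), with an adjusted limma p of 0.205. Ube2j2, an enzyme of the endoplasmic reticulum membrane, averaged near 0 while its 3 spots disagreed. At 2 h they read -0.24, 0.22 and -0.12. Ube2cbp, a protein that binds an E2 enzyme and is none itself, was at -0.22, 0.034, -0.056 and -0.15 at 1, 2, 4 and 6 h.

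The remaining conjugating enzymes changed sign between arrays. Ube2j1, which acts with Ube2g2 and Ube2j2 in disposal at the endoplasmic reticulum, was at 0.13, 0.17, -0.0084 and 0.049 at 1, 2, 4 and 6 h. Ube2g1 was at -0.19, 0.030, -0.087 and -0.082 at 1, 2, 4 and 6 h and Ube2h at 0.0082, 0.017, 0.023 and -0.11 at 1, 2, 4 and 6 h. Neither passed 2-fold on any array, nor did the members that follow. Ube2o, a large enzyme that joins conjugation with ligase activity, was at 0.15, 0.018, 0.13 and -0.048 at 1, 2, 4 and 6 h. Ube2q1 was at -0.047, 0.053, -0.22 and 0.012 at 1, 2, 4 and 6 h, and Ube2r2, a partner of cullin ligases, at -0.20, 0.074, 0.074 and -0.013 at 1, 2, 4 and 6 h. Ube2w, which modifies the amino terminus of proteins, was at -0.00070, -0.094, -0.076 and 0.032 at 1, 2, 4 and 6 h, close to 0 throughout.

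The ligase Ube3a, whose loss in neurons causes Angelman syndrome in humans, was at -0.13, 0.073, -0.049 and -0.047 at 1, 2, 4 and 6 h. The chain elongation factor Ube4b was at -0.035, 0.14, 0.094 and 0.35 at 1, 2, 4 and 6 h, and both of its spots passed 0.24 at 6 h. Its mean of 0.14 ± 0.071 (SE, n = 4 arrays) had an adjusted limma p of 0.484. Ube3b, a relative of Ube3a, was at 0.061, -0.21, 0.014 and 0.17 at 1, 2, 4 and 6 h. Its 2 h value joined spots at -0.40 and -0.011, and its 1 and 6 h values rest on the second of these spots alone. Ube3a thus stayed within 0.13 of 0, and Ube4b was positive at every time after 1 h.

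**Figure D3:**
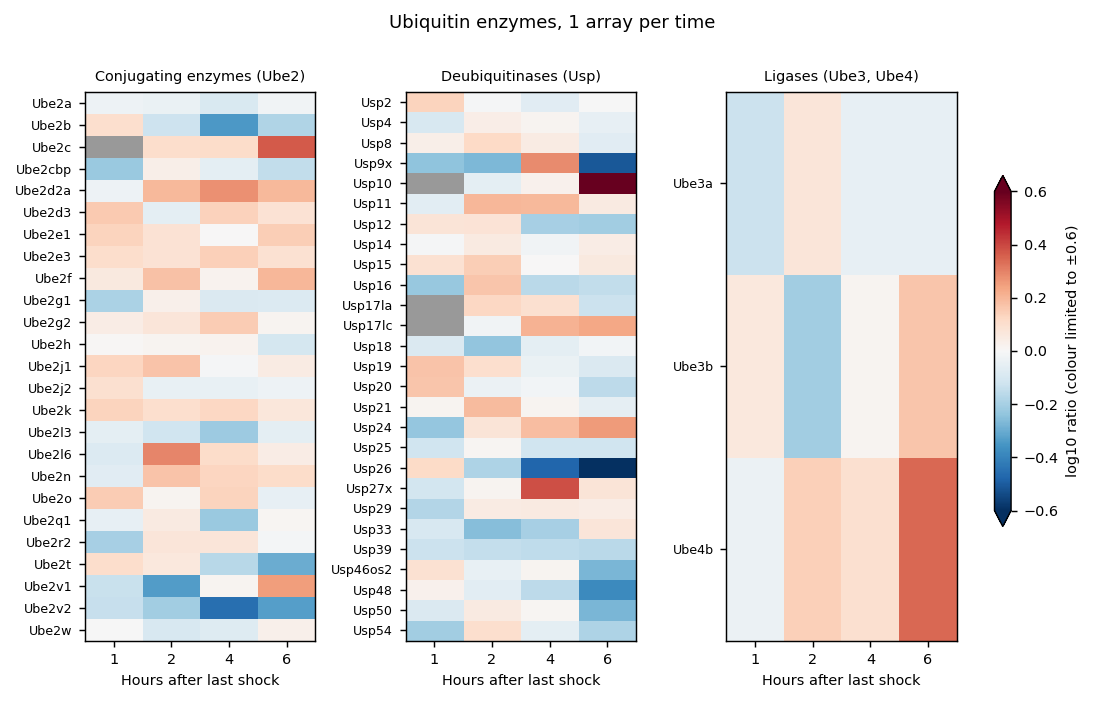
Log10 ratio (MK C+S over MK, likely direction) of each conjugating enzyme, deubiquitinase and ligase at 1, 2, 4 and 6 h, 1 array per time, with red positive, blue negative and grey not measured. Ube2v2 and Usp39 are blue in all 4 columns and Ube2k and Ube2e3 red in all 4, and Usp26 darkens with time.

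Deubiquitinases had medians of -0.073, 0.037, 0.0017 and -0.069 at 1, 2, 4 and 6 h, with 16 of 27 positive at 2 h and 18 of 27 negative at 6 h. Usp39 had the steadiest values of the whole system, at -0.13, -0.14, -0.15 and -0.16 at 1, 2, 4 and 6 h. It lacks deubiquitinase activity and takes part in splicing. Its mean was -0.15 ± 0.047 (SE, n = 4 arrays), with an adjusted limma p of 0.427. Usp18, which removes ISG15, was negative on every array at -0.085, -0.24, -0.057 and -0.017 at 1, 2, 4 and 6 h, while Ube2l6 of the same pathway was positive from 2 h on. Usp15 was positive on every array, at 0.089, 0.15, 0.0017 and 0.060 at 1, 2, 4 and 6 h. Usp14, the deubiquitinase that docks on the proteasome, was flat at -0.0061, 0.054, -0.019 and 0.043 at 1, 2, 4 and 6 h.

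Usp26 had the strongest drift of the members with a value on all 4 arrays, at 0.12, -0.18, -0.48 and -0.67 at 1, 2, 4 and 6 h. This X-linked gene is known from the testis. Its slope was -0.15 ± 0.029 per h (SE, n = 4 arrays), with an adjusted limma p of 0.128. Its 6 h ratio is 4.72-fold below 1, and each value was lower than the one before. The mean of Usp26 was -0.30 ± 0.13 (SE, n = 4 arrays) (adjusted limma p 0.439), and without the 6 h array it was -0.18. Usp24 ran upwards, at -0.23, 0.076, 0.18 and 0.25 at 1, 2, 4 and 6 h, and Usp48 downwards, at 0.027, -0.062, -0.16 and -0.38 at 1, 2, 4 and 6 h. Usp24 changed sign after 1 h, and Usp48 had its single large value at 6 h.

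Usp9x, an X-linked enzyme found at synapses, was negative except at 4 h, at -0.24, -0.27, 0.28 and -0.51 at 1, 2, 4 and 6 h. Usp27x was near 0 except for 0.39 at 4 h, and Usp11 was positive from 2 h on, at 0.20, 0.20 and 0.056 at 2, 4 and 6 h. Usp16, a deubiquitinase of histones, was negative except at 2 h, at -0.23, 0.17, -0.16 and -0.15 at 1, 2, 4 and 6 h. Usp19 was at 0.17, 0.10, -0.041 and -0.086 at 1, 2, 4 and 6 h. Usp10 was near 0 at 2 and 4 h, at -0.060 and 0.025, and reached 0.70 at 6 h. These values have neither a replicate array nor, for these 6 genes, a second spot. Usp46os2, named as a transcript from the strand opposite Usp46, is not a deubiquitinase, and was at 0.089, -0.045, 0.014 and -0.28 at 1, 2, 4 and 6 h.

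Several deubiquitinases were negative at 6 h after positive values. Usp12 was at 0.079, 0.080, -0.20 and -0.21 at 1, 2, 4 and 6 h. Usp20 was at 0.17, -0.037, -0.016 and -0.16 and Usp50 at -0.085, 0.052, 0.014 and -0.28 at the same times. The 6 h value of Usp50 rests on 1 of its 2 spots, which read -0.28, 0.068, -0.073 and -0.28 at 1, 2, 4 and 6 h. The other spot read 0.11, 0.036 and 0.10 at 1, 2 and 4 h, so the fall at 6 h came largely with its loss. Usp8, an enzyme of endosomal sorting, was at 0.035, 0.12, 0.049 and -0.069 at 1, 2, 4 and 6 h, and Usp21 at 0.017, 0.19, 0.018 and -0.054 at 1, 2, 4 and 6 h. Each of these 5 was positive at some earlier time and negative at 6 h. Usp33 took the opposite course, at -0.096, -0.26, -0.20 and 0.074 at 1, 2, 4 and 6 h, and Usp29, an imprinted gene, was negative at 1 h only, at -0.18, 0.050, 0.053 and 0.044 at 1, 2, 4 and 6 h. Usp25 was at -0.12, 0.011, -0.12 and -0.12 at 1, 2, 4 and 6 h and Usp54 at -0.21, 0.10, -0.059 and -0.18 at 1, 2, 4 and 6 h. Both were positive at 2 h alone. Usp2 and Usp4 stayed between -0.098 and 0.13. Usp17la and Usp17lc belong to a family of near-identical copies whose RNA a spot may not tell apart, and they were at 0.12, 0.097 and -0.13 at 2, 4 and 6 h and at -0.019, 0.21 and 0.23 at 2, 4 and 6 h.

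At a size of 2-fold, which is 0.301 on the log10 scale, members were past the threshold in few cases. At 1 h, 2 of 92 measured members were positive (Psma8 and Psmb3) and 0 negative, beside 5.12% and 3.35% of all genes. At 2 h, 1 of 100 was positive (Psme1) and 4 negative (Psma2, Psma8, Psmd13 and Ube2v1), beside 2.44% and 4.14%. At 4 h, 3 were positive (Psme1, Usp27x and Psmb9) and 4 negative (Psma2, Usp26, Ube2v2 and Ube2b) of 100, beside 2.49% and 4.58%. These counts lay near the background at 2 and 4 h. At 6 h, 5 of 98 were positive (Psme1, Usp10, Psmd10, Ube2c and Ube4b) and 5 negative (Usp26, Usp9x, Usp48, Psmg3 and Ube2v2), beside 10.2% and 11.7% of all genes. The members' median absolute deviation at 6 h was 0.0975, against 0.135 for all genes, and at 1, 2 and 4 h it was 0.0886, 0.101 and 0.107 against 0.0969, 0.0961 and 0.0947. The difference in spread was not tested.

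Averaging a member over the 4 arrays addressed a difference that lasts through all times. The error of that average is the scatter among times, which limma moves towards that of all tested genes. Among 91 members with a value on every array, 0 passed limma's test at an adjusted p under 0.05, as did 0% of the 8553 genes tested. At an unadjusted p under 0.05 there were 9 members (7 negative and 2 positive), beside 11.4% of all genes. The share was thus near the background. Means were negative in 56 of 91 members and in 4611 of 8553 genes. Of the members, 10 were positive on all 4 arrays and 12 negative, beside 10.1% and 11.8% of all genes. For the slope on hours, 0 members passed, as did 0% of all genes, and 8 had an unadjusted p under 0.05, beside 14.6% of all genes. The lowest adjusted p was 0.416 for a mean (Ube2v2) and 0.128 for a slope (Usp26).

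**Figure D4:**
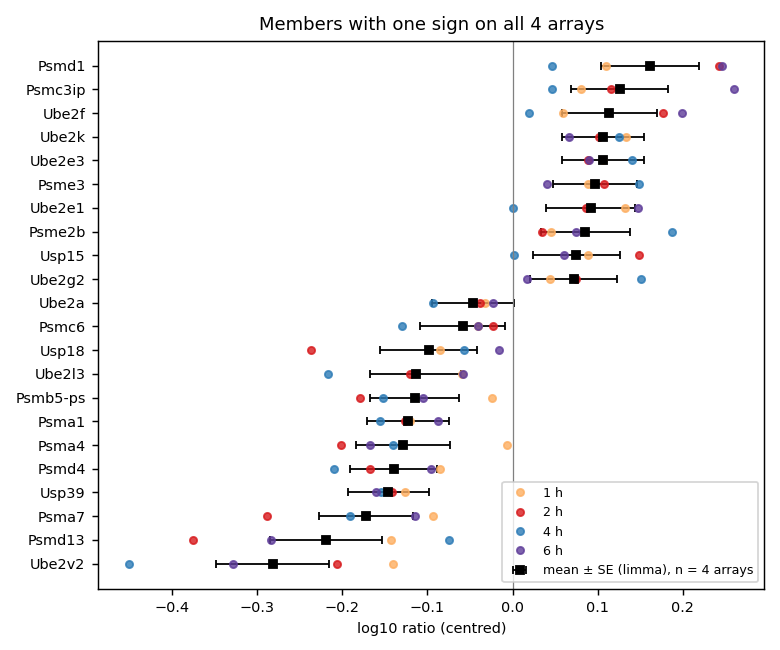
Log10 ratio at 1, 2, 4 and 6 h (coloured points) and mean ± limma's SE (black squares, n = 4 arrays) of the 22 members with one sign on all 4 arrays. Means run from 0.16 for Psmd1 at the top to -0.28 for Ube2v2 at the bottom, and none passed limma's test after adjustment.

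Of the members, 17 had 2 or more spots, and these allow a check of single values. Over 59 comparisons on the same array, spots of a member differed by a median of 0.146, and by 2-fold or more in 12. The gaps were largest for Ube2v2 at 4 h (0.864), Psmd10 at 6 h (0.728) and Ube2v2 at 6 h (0.621). A second spot was therefore often as far from the first as most members lay from 0. The other 83 members had 1 spot, among them every alpha subunit, Psme1, Usp26 and Usp39.

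**Figure D5:**
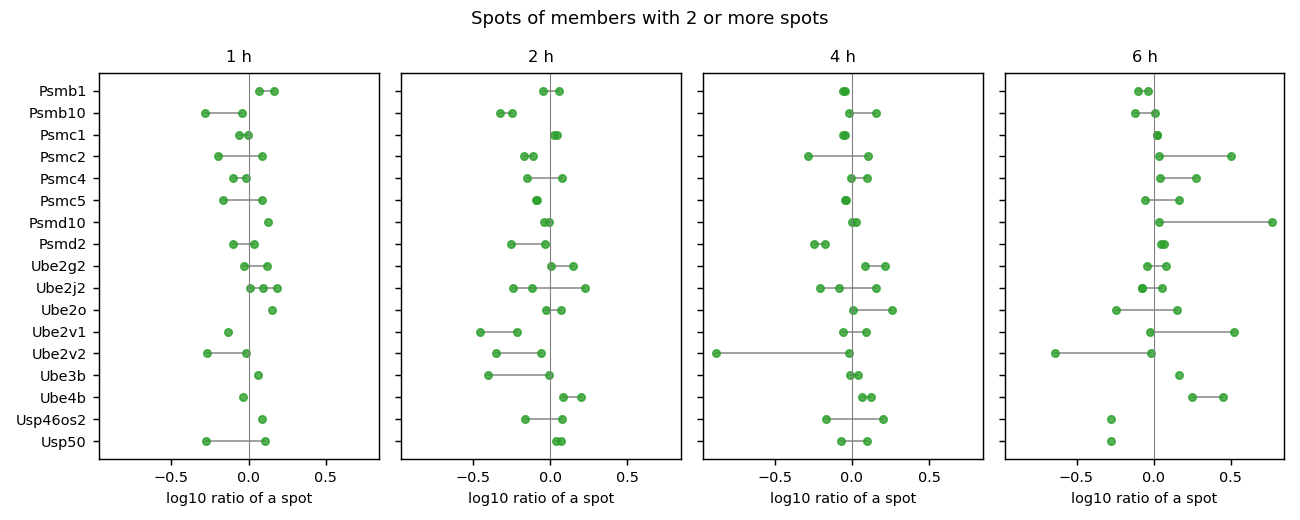
Log10 ratio of each spot (points, joined by a line within a gene) of the 17 members with 2 or more spots, at 1, 2, 4 and 6 h. Psmc1 spots nearly coincide on all arrays, and those of Ube2v2 lie 0.864 apart at 4 h.

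Other genes of the pathway were taken from written lists, and those named had the 2 lowest or 2 highest means of their list. Of 52 ubiquitin ligase genes tested in the mean, 0 passed, with 26 positive and 26 negative means and a median of 0.0037. Rnf13, a membrane ligase, was at 0.17, 0.18, 0.20 and 0.31 at 1, 2, 4 and 6 h, and Siah1b, a ligase of the Siah family, at 0.30, 0.20, 0.20 and 0.14 at 1, 2, 4 and 6 h. The cullin scaffolds Cul2 and Cul5 were at -0.20, -0.47, -0.23 and -0.79 at 1, 2, 4 and 6 h and at -0.071, -0.21, -0.14 and -0.31 at 1, 2, 4 and 6 h. Cul2 and Cul5 were negative and Rnf13 and Siah1b positive on every array, after being picked by their means. The other listed cullins, Cul1, Cul3, Cul4a, Cul4b and Cul7, changed sign between arrays. Among 12 proteasome cofactors, 0 passed and 5 had positive means. Uchl5, a deubiquitinase of the regulatory particle, was positive throughout at 0.095, 0.18, 0.16 and 0.25 at 1, 2, 4 and 6 h, as was Ufd1, an adaptor of the segregase Vcp, at 0.093, 0.13, 0.065 and 0.16 at 1, 2, 4 and 6 h. The shuttle proteins Ubqln1 and Ubqln4 were at -0.078, 0.018, 0.026 and -0.40 at 1, 2, 4 and 6 h and at -0.19, -0.020, -0.038 and -0.18 at 1, 2, 4 and 6 h.

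Deubiquitinases of other families numbered 17 in the test, with 0 passing, 7 positive and 10 negative means and a median of -0.017. Cops6, a subunit of the COP9 signalosome that trims NEDD8 from cullins, was negative throughout at -0.13, -0.27, -0.10 and -0.25 at 1, 2, 4 and 6 h. Josd1 was at -0.58, -0.24, 0.17 and -0.018 at 1, 2, 4 and 6 h, Josd2 at -0.017, 0.050, 0.041 and 0.35 at 1, 2, 4 and 6 h and Otud3 at 0.28, 0.040, -0.074 and 0.15 at 1, 2, 4 and 6 h. The last 3 changed sign between arrays. From the list of ubiquitin genes and activating enzymes only 2 genes had a value on all 4 arrays, both for relatives of ubiquitin, and 0 passed. Uba3, of the NEDD8 activating enzyme, was at 0.092, 0.32, -0.075 and 0.058 at 1, 2, 4 and 6 h, and Sae1, of the SUMO activating enzyme, at 0.012, -0.20, -0.15 and -0.0015 at 1, 2, 4 and 6 h.

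Set beside other large complexes, the core as a whole took another course over time, though its beta subunits did not from 2 h on. Cytosolic ribosomal protein genes had medians of -0.076, -0.067, 0.078 and 0.067 at 1, 2, 4 and 6 h, and respiratory chain and ATP synthase genes -0.041, -0.074, 0.059 and 0.051. Both groups were negative at 1 and 2 h and positive at 4 and 6 h. The core had -0.0068, -0.15, -0.053 and -0.070, negative at all 4 times, with 9 of 17 genes negative at 1 h. Its beta subunits had 0.0013, -0.036, 0.038 and 0.043, and the regulatory particle turned positive only at 6 h. Heat shock proteins and chaperones, which refold proteins instead of degrading them, had 0.018, 0.049, 0.0097 and 0.010, positive throughout. These differences between groups were not tested. Without the 2 h array the median of the core members' means was -0.018, against -0.057 with all 4, and for the alpha subunits it was -0.10 against -0.12.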

How the data were processed

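Two-colour arrays compared CA1 RNA of MK C+S (red) with MK (green), 1 array at each of 1, 2, 4 and 6 h. The authors deposited a log ratio per spot, taken here as log10 from its range of -3.10 to 1.58, since neither the labels nor the table state base, direction, centring or normalization. Each deposited column had a median of 0. No intensities were used, so dim or saturated spots could not be told. Of 16281 spots, 13738 had 1 gene symbol in the platform annotation, 52 several and 2491 none. Members had 118 spots, of which 116 matched RefSeq (GRCm38.p6) with 0 symbols changed.

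Exact zeros were treated as not measured, each array was centred on the median of its measured spots, and a gene was the mean of its spots. Means and slopes on hours were fitted in limma 3.58.1 under R 4.3.3 (lmFit, then eBayes), two-sided, with Benjamini-Hochberg adjustment over all genes with a value on all 4 arrays, so 9 members (Psma2, Psmb5, Psmb9, Psmd7, Psme1, Ube2c, Usp10, Usp17la and Usp17lc) were outside these tests. The script was tested on simulated data. Nothing in the labels says that the arrays came from separate animals, so the error may be technical.

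Members and lists were chosen with earlier results of these data known. Named members were the 4 highest and 4 lowest per time, those with one sign on all arrays or an unadjusted p under 0.05, the highest and lowest mean of each class, the 3 steepest slopes each way, members past 2-fold on 3 arrays, members whose spots disagreed on 2 arrays, and 24 landmark genes, of which 18 were on the array. In the pathway lists they were the 2 highest and 2 lowest means. The other members and the subgroups were named after their values were seen. This covers the alpha, beta, ATPase and PA28 subgroups and the motifs. Alternatives covered zeros, centring, spot summary, scaling, weights, thresholds, log base, spot position, time covariate and leaving out each array.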

Additional observations from a re-analysis of the deposited data

How the results depend on the processing

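Of the alternative values for class medians and counts of members, 223 moved little and 36 moved by more than a set limit. For medians the limit was the SD between spots divided by the square root of the number of genes. For counts it was 1.5 times. The limit was wide beside small medians, so the 223 do not show that such medians are stable. At 6 h the core median went from -0.070 to -0.024 once a running median was taken off. That of conjugating enzymes at 6 h went from 0.018 to -0.031 among genes with 2 or more spots. Both counted as moving little. Medians close to 0 also changed sign: the sign was kept in 24 of 28 alternative medians over all members, 26 of 28 for the core, 26 of 28 for the regulatory particle, 25 of 28 for conjugating enzymes, 25 of 27 for deubiquitinases and 22 of 24 for alpha subunits. The log base matters most for counts past 2-fold. At 1, 2, 4 and 6 h, where base 10 gave 2, 5, 7 and 10 members, base-2 logs gave 0, 0, 1 and 0 and natural logs 0, 0, 1 and 2. At 1.5-fold there were 12, 23, 27 and 29 members, and at 3-fold 1, 1, 2 and 4. Members with 2 or more spots gave 0, 1, 1 and 3 of 11, 17, 17 and 14. With each spot on its own 8 spots passed at 2 h, and with members measured on all 4 arrays there were 3 at 2 h and 4 at 4 h.

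Medians moved past the limit mainly where few genes remained. Among members with 2 or more spots the overall median was -0.040, -0.045 and 0.014 at 1, 2 and 4 h, that of the core 0.0072 at 4 h (2 genes) and that of the conjugating enzymes -0.045 at 2 h (5 genes). The deubiquitinase median at 1 h was -0.00070 with zeros kept, against -0.073. No alpha subunit had 2 spots, so that alternative gave no value for them. Alpha subunit medians at 2, 4 and 6 h were negative under the alternatives run, and -0.25 at 2 h once a running median of 51 spots along the array was taken off.

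In the mean, members at an unadjusted p under 0.05 numbered 14 with array weights and 2 to 16 when 1 array was left out (16 without 1 h, 2 without 2 h), against 9, and 0 passed after adjustment under each alternative. For slopes there were 5 with arrays scaled, against 8, and 5 to 8 when 1 array was left out. After adjustment 0 to 1 passed. The 1 was Usp26 without the 4 h array (slope -0.15, adjusted limma p 0.035), a fit in which 418 of all 8628 genes passed with 1 residual degree of freedom. No paired analysis was possible because each time has 1 array. No depth applies to ratios, and the 4 arrays limit the precision.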
